A study of Caenorhabditis elegans with 12 samples.

Results

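Whole-worm RNA-Seq of Caenorhabditis elegans that carried raga-1 in neurons was compared with that of raga-1 mutants without it. The comparison was chosen by genotype label and took 8 of the 12 samples of the series, 4 of the neuronal rescue and 4 of the mutant, with 4 wild type samples given for level only. Each sample held 1000 hermaphrodite mid-L4 larvae, the last larval stage, from an independent egg lay on HT115 bacteria with the empty L4440 vector. Rescue worms carried raga-1(ok386), the deletion that the mutant also carries, and the extrachromosomal array wbmEx238, in which the pan-neuronal rab-3 promoter drives raga-1 cDNA followed by SL2, mCherry and the unc-54 tail. Mutant worms carried raga-1(ok386) alone, and wild type was N2. The array is 1 transgenic line. By the study's account many neuronal promoters are also active in the intestine, and expression of this array was seen there in adults. Worms with the array were picked to a new plate under a fluorescence microscope, whereas mutants were washed straight off theirs, so that handling and genotype cannot be told apart. Rescue sample n and mutant sample n shared a harvest date, which was day 1, 2, 4 or 6 for n = 1 to 4.

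RagA is a small GTPase that reports amino acid supply to TORC1, the kinase complex that promotes growth and protein synthesis. Loss of RAGA-1 lowers TORC1 activity and extends worm lifespan. Neurons can act on other tissues by releasing neuropeptides and insulin-like peptides, and the question addressed here is which transcripts of the whole animal differ once raga-1 is put back in neurons. In RNA of whole worms, fewer cells of a type and less RNA per cell cannot be told apart.

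Total estimated counts ran between 24724610 and 31410363 in rescue samples and between 20320091 and 35619305 in mutant samples. Expression is given in CPM, counts scaled to library sizes that TMM had adjusted. A gene was called where edgeR's quasi-likelihood test on the 8 samples gave an adjusted p (Benjamini-Hochberg) below 0.01. Pairs of 1 rescue and 1 mutant sample lay 48.9 to 65.3 units apart (Euclidean distance on log2 CPM, 16 pairs), rescue samples lay 38.6 to 44.7 apart and mutant samples 37.7 to 52.9 (6 pairs each).

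The transgene's own product came first. Transcripts of raga-1 (WBGene00006414; WBcel235 chromosome II, positions 11301359 to 11302776) stood at 905, 819, 891 and 866 CPM in rescue samples 1 to 4, against 1.46, 1.78, 1.5 and 1.57 CPM in the mutant samples. Every rescue sample was far above every mutant sample, which places each library where its label does. Rescue averaged 870 ± 37.9 CPM, the mutant 1.58 ± 0.14 CPM and wild type 67.4 ± 3.48 CPM (SD, n = 4 each). The log2 fold change of rescue over mutant was 9.09 (SE 0.09, edgeR's quasi-likelihood test, adjusted p = 6.53e-13).

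The other worm genes that lend sequence to the array did not pass the test. unc-54, a muscle myosin whose tail ends the array, averaged 7570 ± 593 CPM in rescue and 7837 ± 393 CPM in mutant samples, and rab-3, a synaptic vesicle GTPase, 16.3 ± 0.85 CPM in rescue and 13.4 ± 1.76 CPM in mutant samples (SD, n = 4 each). gpd-2 and gpd-3, glycolytic genes of an SL2-spliced operon, had log2 fold changes of 0.23 and -0.03. The groups of gpd-2 did not overlap, at 394.8 to 450.3 CPM in rescue and 319.7 to 390.4 CPM in mutant samples. Its edgeR adjusted p was 0.0666, and 0.00769 when scaled by library size alone. Whether reads from the array were counted for gpd-2 was not tested. None of the 10 tested genes on either side of raga-1 was called. The nearest were saps-1, 99 bases away at a log2 fold change of -0.06, and samp-1, 115 bases away at -0.23 (edgeR adjusted p = 0.0246).

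**Figure D1:**
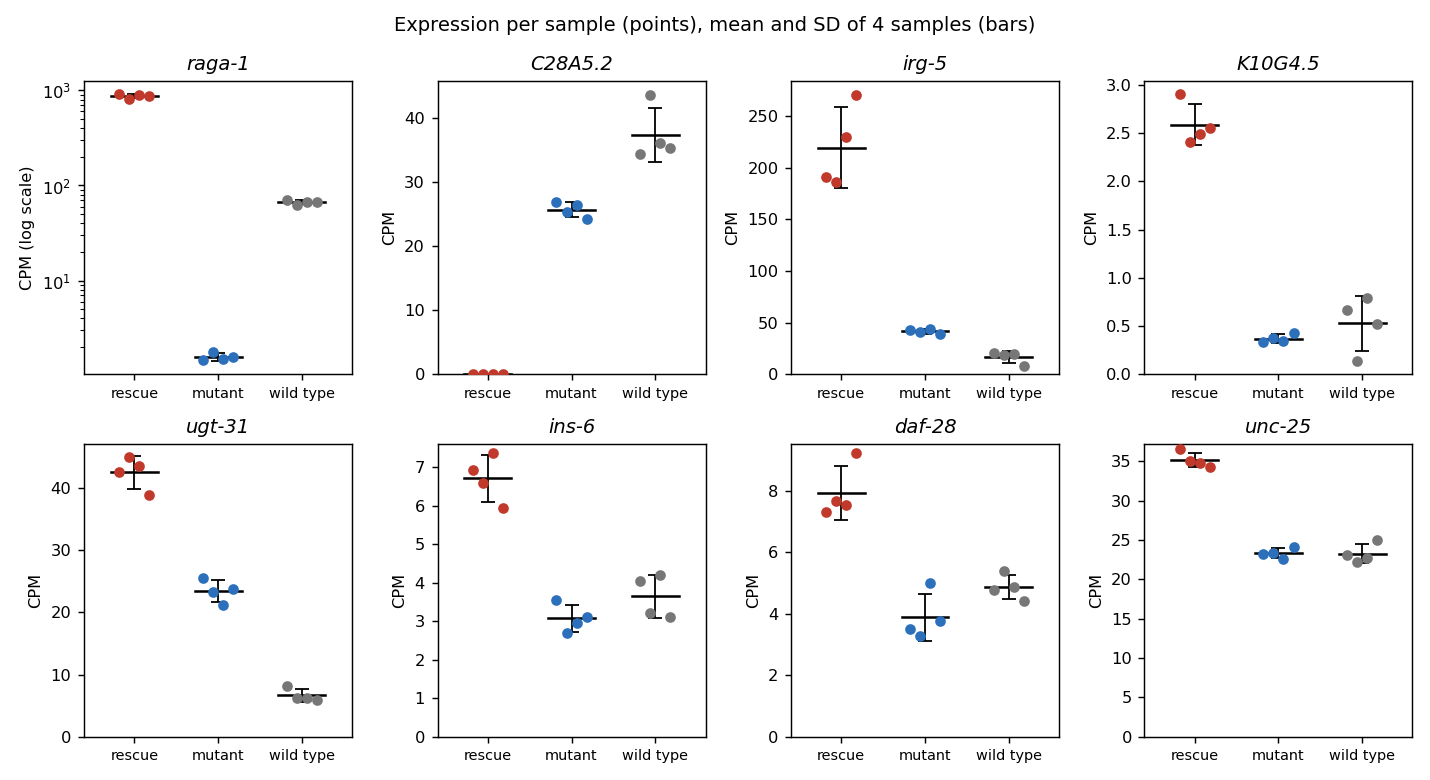
CPM per sample (points) with the mean and SD of 4 samples (bars) for 8 genes in rescue, mutant and wild type. The axis of raga-1 is logarithmic and the others start at 0. In all 8 panels the rescue points do not overlap the mutant points.

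Testing 15535 genes gave 556 calls (3.58%), of which 439 had more transcript in rescue (2.83% of genes tested) and 117 had less (0.753%). All 556 had groups that did not overlap, so that the rescue sample lay on the same side of the mutant sample on every collection day. A lack of overlap alone was found for 10.8% of all genes with rescue higher and 7.06% with rescue lower. The median log2 fold change was 0.95 among genes called higher and -0.48 among genes called lower, and 207 rose but only 6 fell by at least 2-fold. The median over all genes tested was -0.002, and 7688 of the 15535 had a fold change above 0. An unadjusted p under 0.05 was found for 4215 of the 15535, the number against which such counts in the lists below should be read.

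The number of calls depended on the setting. With collection day as a block, 135 genes were higher and 83 lower, 1.4% of all genes, and 173 of these 218 were among the 556. Scaling by library size alone gave 647 higher and 72 lower, a share of 90% higher against 79% with TMM, and moved the median of all genes to 0.06. DESeq2 gave 802 higher and 441 lower, of which 64.5% were higher. Leaving out mutant sample 1, 2 or 4 gave 219, 115 or 157 genes higher, and leaving out rescue sample 1 or 4 gave 171 or 155. In all 8 such fits 127 genes were called. With all 12 samples in the fit, 48 were higher and 12 lower, all 60 of them among the 556.

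**Figure D2:**
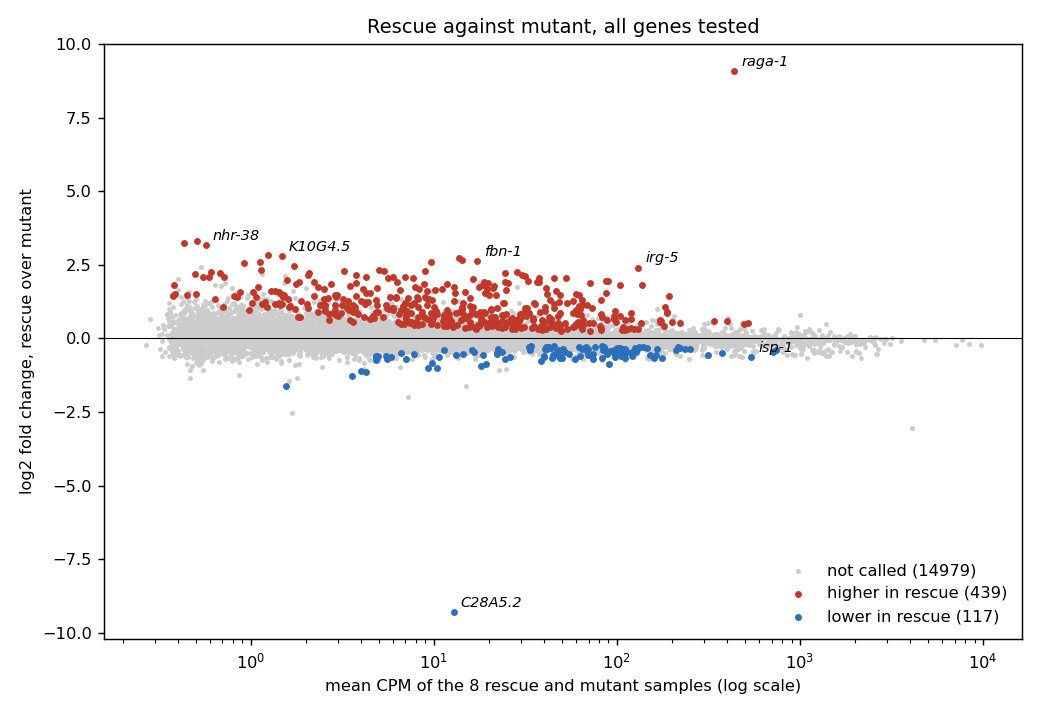
Mean CPM of the 8 samples (logarithmic axis) against the log2 fold change of rescue over mutant for each of the 15535 genes tested, coloured by call. Of the called genes, 207 of the 439 higher in rescue but 6 of the 117 lower ones lie at least 2-fold from 0, with raga-1 at 9.09 and C28A5.2 at a fitted -9.30, which rests on near-zero rescue counts, as the 2 most distant points.

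The largest fall was that of C28A5.2 (WBGene00007789; WBcel235 chromosome III, positions 4434750 to 4439543). It had 0, 0, 0.07 and 0.06 CPM in rescue samples, against 26.8, 25.2, 26.3 and 24.2 CPM in mutant samples, and wild type samples lay between 34.3 and 43.5 CPM. The gene was thus nearly undetected only in the rescue strain. Over the 4 libraries of each group this was 4 counts in rescue and 2570 in the mutant, a ratio of 0.0014 (exact 95% interval 0.0004 to 0.0036, which covers counting error only; edgeR's quasi-likelihood adjusted p = 3.01e-09). Among 11814 genes that averaged at least 100 counts in either group, C28A5.2 was the single gene with at most 3 counts in every sample of the other group. The strand setting of the counting is not stated, so reads of genes that overlap on opposite strands may have been counted together. Among others, fbn-1, nas-37 and wrt-2 overlap a neighbour in this way. Of the 10 tested genes on each side of C28A5.2, 1 was called, C28A5.1, at positions 4429615 to 4434344 on the same minus strand as C28A5.2. Its level was higher in rescue (34.4 ± 2.76 CPM against 22.8 ± 1.70 CPM for mutants, SD over 4 samples each, log2 fold change 0.59, edgeR adjusted p = 0.00167). nex-3, an annexin gene 2538 bases away on the other side, stood at 42.9 CPM in both groups.

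Several genes of secreted signals and of their processing were higher in rescue. The insulin-like peptides are ligands of DAF-2, the worm insulin and IGF receptor. Of 27 tested, 4 rose and 0 fell, 14.8% called against 3.58% of all genes. A fold change above 0 was found in 19 (7688 of all 15535 genes), and the median log2 fold change was 0.32. ins-6, a peptide made in sensory neurons that opposes dauer arrest, stood at 6.92, 6.59, 7.37 and 5.93 CPM in rescue samples, against 3.55, 2.70, 2.95 and 3.10 CPM in mutant samples. The lowest rescue sample was above the highest mutant sample (log2 fold change 1.13, SE 0.12, edgeR's quasi-likelihood adjusted p = 0.000678), and wild type averaged 3.64 ± 0.56 CPM. daf-28, an insulin-like peptide of the same kind, had 7.30, 7.67, 7.54 and 9.22 CPM in rescue samples, against 3.51, 3.28, 4.98 and 3.76 CPM in mutant samples. Its groups did not overlap either (log2 fold change 1.05, SE 0.14, edgeR's adjusted p = 0.00196, and 0.0102 without mutant sample 2).

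The other called insulin-like peptides were ins-26, at 5.17 ± 0.30 CPM in rescue and 3.11 ± 0.12 CPM in the mutant, and ins-9, at 0.83 ± 0.20 CPM in rescue and 0.16 ± 0.11 CPM in mutants (SD over 4 samples each). Both calls were lost with collection day as a block (edgeR adjusted p = 0.0133 and 0.0242). The call of ins-26 was also lost without mutant sample 2 (adjusted p = 0.0106), and that of ins-9 in 6 of the 8 fits without 1 sample (those without mutant sample 2 and without rescue sample 2 kept it). Without mutant sample 2 the list held 2 called members.

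egl-3 and egl-21 encode the proprotein convertase and the carboxypeptidase that mature most neuropeptides. egl-3 had 151, 144, 145 and 144 CPM in rescue samples, against 122.8, 113.8, 112.5 and 115.3 CPM in mutant samples. egl-21 had 141, 136, 133 and 140 CPM in rescue samples, against 110.5, 108.4, 112.5 and 109.6 CPM in mutant samples. The rises were small but larger than the spread between samples, at log2 fold changes of 0.33 and 0.32 (edgeR's quasi-likelihood adjusted p = 0.00274 and 0.00227). Both calls were lost without mutant sample 2 (adjusted p = 0.0152 and 0.0141) and without mutant sample 4 (0.0113 and 0.0106), and that of egl-21 with collection day as a block (0.012). With all 12 samples the adjusted p was 0.0164 for egl-3 and 0.0153 for egl-21.

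aex-5, which encodes a further proprotein convertase and was picked out after its values were seen, rose more. It stood at 49.7, 45.1, 54.01 and 49.6 CPM in rescue samples, against 21.8, 22.5, 23.5 and 21.4 CPM in mutant samples, and wild type averaged 20.8 ± 1.59 CPM. All rescue samples were above all samples of both other genotypes (log2 fold change over the mutant 1.15, SE 0.06, edgeR's adjusted p = 1.01e-05). aex-5 lies on chromosome I at 14850052 to 14855827, next to unc-54 at 14855901 to 14863482 on the same strand, and the array carries the unc-54 tail. Whether reads from the array were counted for aex-5 was not tested.

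The peptides that these enzymes process mostly did not pass the test. Of 54 neuropeptide-like protein genes edgeR called only nlp-10 (1.85%, against 3.58% of all genes), at 14.6 ± 1.46 CPM in rescue and 10.6 ± 0.41 CPM in the mutant. Its call was lost with the block (edgeR adjusted p = 0.0275) and in 7 of the 8 fits without 1 sample, all but that without rescue sample 2. DESeq2 called 6 of the 54 higher and 0 lower. Among the 54, 20 had an unadjusted p under 0.05 and 43 a fold change above 0. Of 30 FMRFamide-like peptide genes 0 were called by edgeR and 1 by DESeq2. Among these 30, 17 had an unadjusted p under 0.05 and 26 a fold change above 0, against 4215 and 7688 of all 15535 genes. Of 81 neuropeptide receptors 0 were called by either tool, and 10 had an unadjusted p under 0.05.

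Of 16 pan-neuronal markers the called members were egl-3 and egl-21 alone (12.5%, against 3.58% of all genes). Fold changes were above 0 in 14 of the 16 markers (median log2 fold change 0.22). Their summed level was 1189 to 1297 CPM in rescue samples and 1107 to 1142 CPM in mutant samples, without overlap. That sum includes egl-3 and egl-21, so its separation is not independent of their calls. Ciliated sensory neuron markers had 0 called of 27 by edgeR and 1 by DESeq2, with 12 at an unadjusted p under 0.05, 26 above 0 and a median of 0.31. Their summed level also did not overlap, at 201 to 228 CPM in rescue and 175.1 to 188.5 CPM in mutant samples. The part of neuronal RNA content in the peptide gene results was not tested.

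Of 19 genes of transmitter identity 1 was called (5.26%, against 3.58% of all genes). unc-25, the glutamate decarboxylase that makes GABA, stood at 36.5, 35.1, 34.7 and 34.4 CPM in rescue samples, against 23.2, 23.3, 22.6 and 24.1 CPM in mutant samples. The SD within each group was below 1 CPM, and the call held in each of the 8 fits without 1 sample and with the block (log2 fold change 0.59, SE 0.05, edgeR's quasi-likelihood adjusted p = 0.000206).

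Of 27 genes of TORC1 and AMPK signalling other than raga-1, 0 were called by edgeR or DESeq2, 4 had an unadjusted p under 0.05, and log2 fold changes lay between -0.16 and 0.24. let-363, the TOR kinase, had a log2 fold change of 0.02, daf-15, the worm Raptor, 0.02, rsks-1, the S6 kinase, -0.04, and aak-2, a catalytic subunit of AMPK, 0.09. Cytosolic ribosomal proteins (0 of 81 called by either tool, 3 at an unadjusted p under 0.05), ribosome biogenesis genes (0 of 28 by edgeR, 3 lower by DESeq2, 7 at an unadjusted p under 0.05) and protein genes of the mitochondrial genome (0 of 12 by either tool, 0 at an unadjusted p under 0.05) had no edgeR call, apart from 1 ribosome biogenesis gene with the block and 1 without rescue sample 2.

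Mitochondrial genes gave 1 call. isp-1 encodes the Rieske iron-sulfur protein of respiratory complex III. It had 457, 427, 404 and 408 CPM in rescue samples, against 660, 639, 603 and 729 CPM in mutant samples. Every rescue sample was lower (log2 fold change -0.63, SE 0.07, edgeR's quasi-likelihood adjusted p = 0.00109), and wild type, at 526 ± 22.1 CPM, stood between rescue and mutant in level. isp-1 was the only gene called by edgeR among 43 of the nuclear-encoded respiratory chain (2.33%, against 3.58% of all genes), whose median was -0.05. DESeq2 called 3 of these 43 lower and 0 higher, and 5 had an unadjusted p under 0.05. Of 15 genes of mitochondrial fission and fusion 0 were called by edgeR and 1 by DESeq2, with 2 at an unadjusted p under 0.05. Of 14 genes of the mitochondrial unfolded protein response 0 were called by edgeR and 1 by DESeq2, with 4 at an unadjusted p under 0.05.

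Of the genes tested for the response to infection, 18.2% were called, each of them higher in rescue, against 3.58% of all genes called. The list follows the p38 kinase PMK-1 pathway and related genes that worms induce on pathogenic bacteria. Of 66 tested, 12 rose and 0 fell, and the median log2 fold change was 0.19. With collection day as a block 11 were called, with all 12 samples 4, and without mutant sample 1, 2 or 4 or rescue sample 3 or 4 the number was 7, 6, 8, 8 or 7. irg-5, an infection response gene, stood at 191, 186, 230 and 271 CPM in rescue samples, against 42.7, 40.7, 43.98 and 38.8 CPM in mutant samples. Wild type was lower still in level, at 16.8 ± 5.75 CPM. Its log2 fold change of rescue over mutant was 2.40 (SE 0.12, edgeR's quasi-likelihood adjusted p = 2.86e-06).

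Further members rose less. dod-22, an immune gene regulated by insulin signalling, averaged 130 ± 3.88 CPM in rescue and 77.0 ± 5.31 CPM in the mutant, with wild type at 24.7 ± 6.82 CPM (SD, n = 4 each; log2 fold change 0.76, edgeR adjusted p = 0.000103). irg-4 averaged 53.5 ± 3.63 CPM in rescue and 34.1 ± 3.18 CPM in the mutant (log2 fold change 0.65), and K08D8.5 lay between 41.3 and 45.9 CPM in rescue and between 25.5 and 28.4 CPM in the mutant (log2 fold change 0.70). These 3 genes were called in all 8 fits without 1 sample and with the block, but dod-22 and irg-4 lost the call with all 12 samples (adjusted p = 0.0276 and 0.0291).

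C-type lectins are secreted carbohydrate-binding proteins, many of them induced by bacteria. Of 127 tested, 11 rose and 1 fell, 9.45% called against 3.58% of all genes. clec-4 had 74.7, 83.4, 71.8 and 65.6 CPM in rescue samples, against 43.3, 42.4, 37.9 and 40.1 CPM in mutant samples, and clec-160 averaged 47.6 ± 2.16 CPM in rescue and 30.9 ± 0.93 CPM in the mutant (log2 fold changes 0.85 and 0.62, edgeR's quasi-likelihood adjusted p = 0.00022 and 0.000146). The single fall was clec-50, at 315 ± 17.9 CPM in rescue and 439 ± 10.6 CPM in the mutant (log2 fold change -0.48, adjusted p = 0.00133). With the block 6 members rose and 1 fell, with all 12 samples 1 rose and 1 fell (clec-4 lost its call, adjusted p = 0.0322), and without mutant sample 2 or 4 or rescue sample 1 or 4 the number higher was 5, 6, 6 or 6.

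A few detoxification genes were called. UDP-glucuronosyltransferases add a sugar acid to small molecules. Of 58 tested, 7 rose and 0 fell, 12.1% called against 3.58% of all genes. The number called higher was 4 under the block, 2 with all 12 samples and 4 without mutant sample 2, rescue sample 1 or rescue sample 4. ugt-31 stood at 42.5, 45.1, 43.5 and 38.9 CPM in rescue samples, against 25.5, 23.2, 21.2 and 23.8 CPM in mutant samples. The groups were apart by more than their spread (log2 fold change 0.86, SE 0.07, edgeR's quasi-likelihood adjusted p = 0.000146), and wild type was lower in level, at 6.68 ± 1.05 CPM. Of 57 cytochrome P450s 3 rose, so that 5.26% were called against 3.58% of all genes, among them cyp-13A2, at 21.2 ± 1.39 CPM in rescue and 11.1 ± 0.60 CPM in the mutant (log2 fold change 0.93). The number of P450s called was 1 with the block, 1 with all 12 samples, 1 without mutant sample 2, rescue sample 1 or rescue sample 4, and 5 without rescue sample 2. Of 40 glutathione S-transferases 0 rose and 1 fell (2.5% called, against 3.58% of all genes). That call was lost with the block and in all 8 fits without 1 sample.

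K10G4.5, for which no role is given here, had 2.90, 2.41, 2.49 and 2.56 CPM in rescue samples, against 0.33, 0.37, 0.34 and 0.43 CPM in mutant samples. All rescue samples were above all mutant samples (log2 fold change 2.80, SE 0.17, edgeR's adjusted p = 1.61e-05). nhr-38, a nuclear hormone receptor gene, had the largest log2 fold change among called genes at 1 CPM or more in rescue after raga-1, at 3.17. Its level was 1.04, 0.52, 1.26 and 1.247 CPM in rescue samples, against 0.04, 0.09, 0.15 and 0.19 CPM in mutant samples, and its call was lost without mutant sample 2 (edgeR's adjusted p = 0.00192, and 0.0114 without that sample). Of 195 nuclear hormone receptors 2 were called (1.03%, against 3.58% of all genes). The number was 1 under the block, 1 without mutant sample 1 or 4 or rescue sample 4, and 0 without mutant sample 2.

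The molting cycle list had the highest share of called members among the lists in the plot of list shares. Its genes are induced and repressed with each larval molt, when epidermal cells build a new cuticle and shed the old one. Of 34 tested, 13 rose and 0 fell, a share of 38.2% called against 3.58% of all genes. The median log2 fold change was 0.44. The calls were sensitive to the setting: 2 of 34 were called with collection day as a block, 0 with all 12 samples in the fit, and 7, 4, 6, 7 or 4 without mutant sample 1, 2 or 4 or rescue sample 1 or 4. The summed level of the list was 2924 to 3928 CPM in rescue samples and 2181 to 2790 CPM in mutant samples, and ranged more widely in wild type, from 1735 to 4610 CPM.

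fbn-1, a fibrillin-like matrix protein of the epidermis, had 46.01, 29.9, 12.1 and 30.1 CPM in rescue samples, against 4.81, 5.26, 4.21 and 4.67 CPM in mutant samples. The rescue samples spread over almost 4-fold, yet the lowest was above every mutant sample (log2 fold change 2.63, SE 0.33, edgeR's quasi-likelihood adjusted p = 0.0016). nas-37, the astacin protease that loosens the old cuticle, had 70.2, 58.8, 50.0 and 66.0 CPM in rescue samples, against 22.99, 26.9, 30.2 and 18.7 CPM in mutant samples (log2 fold change 1.31, SE 0.14, adjusted p = 0.00072). Both were called in all 8 fits without 1 sample and with the block, and neither with all 12 samples (adjusted p = 0.106 for fbn-1 and 0.248 for nas-37). peb-1, a DNA-binding protein needed for molting, averaged 5.42 ± 1.52 CPM in rescue and 1.56 ± 0.35 CPM in the mutant, and its call was lost with the block (adjusted p = 0.0119).

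Genes of the cuticle itself moved in both directions. Of 142 cuticle collagens 10 rose and 3 fell, 9.15% called against 3.58% of all genes. Yet the list's median log2 fold change was -0.30 and 41 of 142 lay above 0. With the block 2 rose and 16 fell, and with all 12 samples 0 were called. Without mutant sample 1, 2 or 4 or rescue sample 1 or 4 the number higher was 2, 2, 2, 3 or 2, and the number lower was 11 without rescue sample 1 and 0 to 2 without any other sample. dpy-9, a collagen that shapes the cuticle furrows, had 69.8, 40.9, 32.8 and 54.6 CPM in rescue samples, against 10.9, 12.1, 14.4 and 6.91 CPM in mutant samples (log2 fold change 2.16, SE 0.25, edgeR's adjusted p = 0.00111). Its call held with the block and in all 8 fits without 1 sample but not with all 12 samples (adjusted p = 0.319), and its wild type samples ran between 0.27 and 69.6 CPM, with sample 1 the highest. Among the falls, col-60 averaged 601 ± 55.5 CPM in rescue and 827 ± 48.5 CPM in the mutant (log2 fold change -0.46, adjusted p = 0.00544, and 0.0142 with the block), and its call was kept in 3 of the 8 fits without 1 sample (those without mutant sample 1 or 3 or rescue sample 1).

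Hedgehog-related and patched-related genes encode secreted and membrane proteins, many of them of the epidermis. Of 70 tested, 12 rose and 3 fell (median log2 fold change 0.26), 21.4% called against 3.58% of all genes. With the block 1 was called, as lower, and with all 12 samples 0. The number higher was 3, 2, 2, 3, 7 or 2 without mutant sample 1, 2 or 4 or rescue sample 1, 2 or 4. The number lower was 3 without mutant sample 1 and 0 or 1 without any other sample. wrt-10, a warthog gene, had 65.5, 39.8, 25.7 and 56.5 CPM in rescue samples, against 8.02, 9.45, 13.7 and 7.86 CPM in mutant samples. The groups did not overlap (log2 fold change 2.27, SE 0.28, edgeR's quasi-likelihood adjusted p = 0.00149), but the call was lost with the block (adjusted p = 0.0118). grl-4, a groundhog-like gene, was lower in rescue, at 107 ± 6.67 CPM against 147 ± 12.9 CPM in the mutant (adjusted p = 0.00371, and 0.0103 and 0.0143 without rescue samples 3 and 4).

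The abu and pqn genes encode proteins with prion-like, glutamine- and asparagine-rich stretches, many of them of the pharyngeal cuticle. Of 68 tested, 13 fell and 1 rose, 20.6% called against 3.58% of all genes, with a median log2 fold change of -0.12. With the block 10 were called lower, with all 12 samples 0, and without mutant sample 1, 2, 3 or 4 or rescue sample 2 or 4 the number lower was 7, 5, 8, 4, 5 or 1. The 1 rise was called only without rescue sample 2 or 4 among the 8 fits without 1 sample. pqn-2 had 96.4, 88.4, 87.3 and 77.5 CPM in rescue samples, against 139, 118, 138 and 134 CPM in mutant samples. All rescue samples were lower (log2 fold change -0.60, SE 0.08, edgeR's quasi-likelihood adjusted p = 0.00162, and 0.0939 with all 12 samples). abu-1 averaged 125 ± 13.2 CPM in rescue and 196 ± 22.9 CPM in the mutant (log2 fold change -0.65), and its call was lost with the block (adjusted p = 0.0112) and without rescue sample 4 (0.0106). Some members of this list are close copies of each other, so that reads may have been divided among those.

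**Figure D3:**
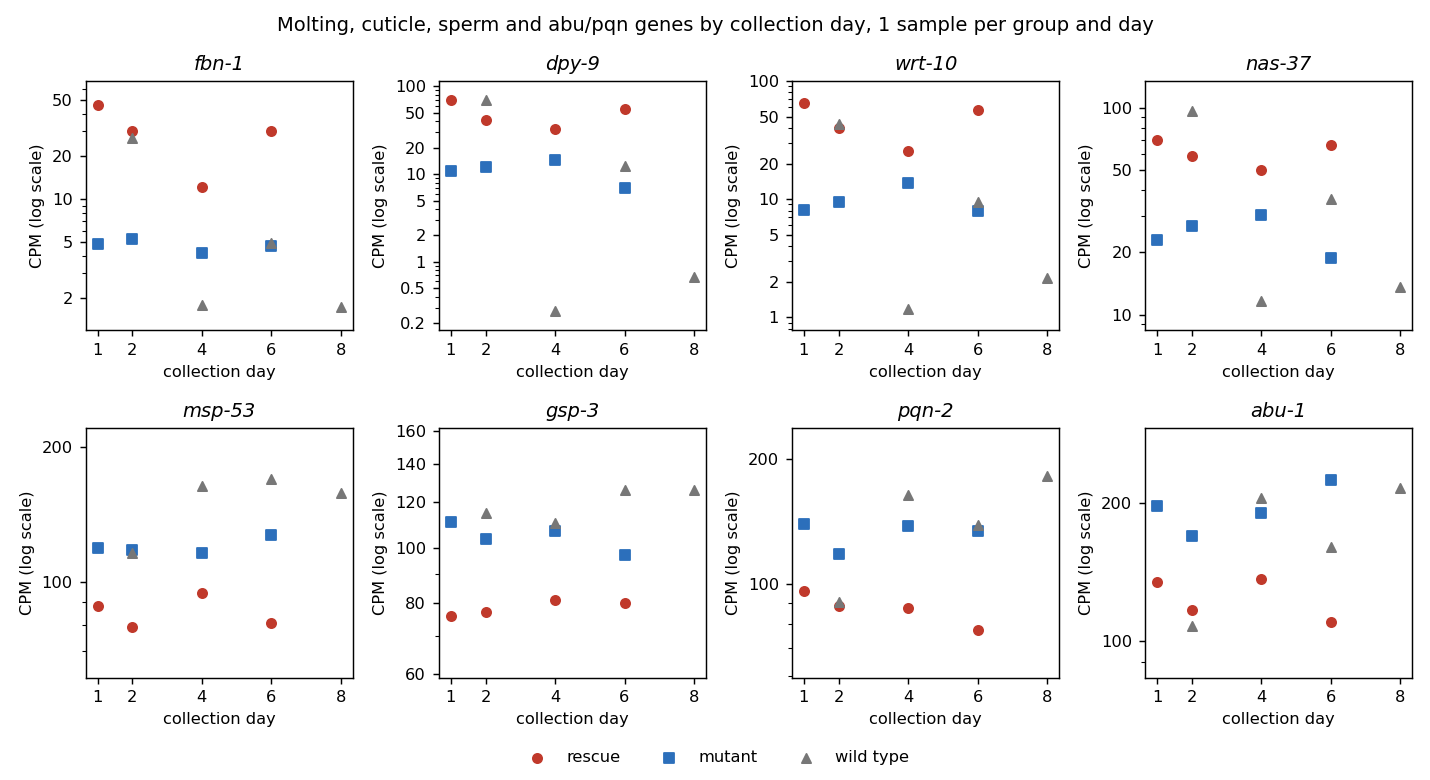
CPM (logarithmic axes) of 4 molting and cuticle genes (top) and of 2 sperm and 2 abu or pqn genes (bottom) against collection day, with 1 sample per genotype and day. On each of the 4 shared days the rescue sample is above the mutant sample in the top row and below it in the bottom row, and wild type samples spread over a wider range than either in the top row.

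Some sperm genes were called, each of them lower in rescue. L4 hermaphrodites make their sperm at this stage, and major sperm proteins, the cytoskeleton of the crawling sperm, come from a large family of near-identical genes among which reads cannot be assigned with certainty. Of 35 tested, 5 fell and 0 rose, 14.3% called against 3.58% of all genes. A fold change below 0 was found in 34, and the median log2 fold change was -0.60. With the block 16 fell, with library size alone 18, with DESeq2 27 and with all 12 samples 0, and without mutant sample 1, 2, 3 or 4 or rescue sample 1, 2 or 4 the number was 12, 2, 13, 2, 1, 2 or 1. The summed level of the family was 2892 to 3328 CPM in rescue samples, below the 4055 to 5639 CPM in mutant samples, and wild type ran from 5163 to 7689 CPM. msp-53 had 88.3, 79.2, 94.6 and 81.0 CPM in rescue samples, against 119.3, 117.7, 116.1 and 127.2 CPM in mutant samples. Its call held in all 8 fits without 1 sample and with the block, but not with all 12 samples (adjusted p = 0.0421; log2 fold change of rescue over mutant -0.49, SE 0.06, edgeR's quasi-likelihood adjusted p = 0.0018).

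Of 63 other spermatogenesis genes 8 fell and 0 rose (median log2 fold change -0.17), 12.7% called against 3.58% of all genes. Fold changes were above 0 in 14 of the 63. The number called was 4 under the block, 1 with all 12 samples, and 5, 3, 5, 5, 5 or 4 without mutant sample 1, 2 or 3 or rescue sample 1, 2 or 4. gsp-3, a protein phosphatase of sperm, had 75.8, 77.1, 80.9 and 79.8 CPM in rescue samples, against 111, 103, 107 and 97.1 CPM in mutant samples. Each rescue sample was lower, in all 8 fits without 1 sample and with the block (log2 fold change -0.42, SE 0.05, edgeR's adjusted p = 0.00167).

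Markers of the rest of the germ line mostly had fold changes below 0 without passing the test. Of 52 germline proliferation and meiosis genes 0 were called by edgeR and 6 lower by DESeq2, 24 had an unadjusted p under 0.05 and 3 had a fold change above 0. Of 28 oocyte and eggshell genes 0 were called by edgeR and 3 lower by DESeq2, 19 had an unadjusted p under 0.05 and all 28 lay below 0, between -0.44 and -0.13, with 1 called without rescue sample 2. Transcripts of these lists, and of the molting list, change with larval stage, and its part in the other results was not tested.

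**Figure D4:**
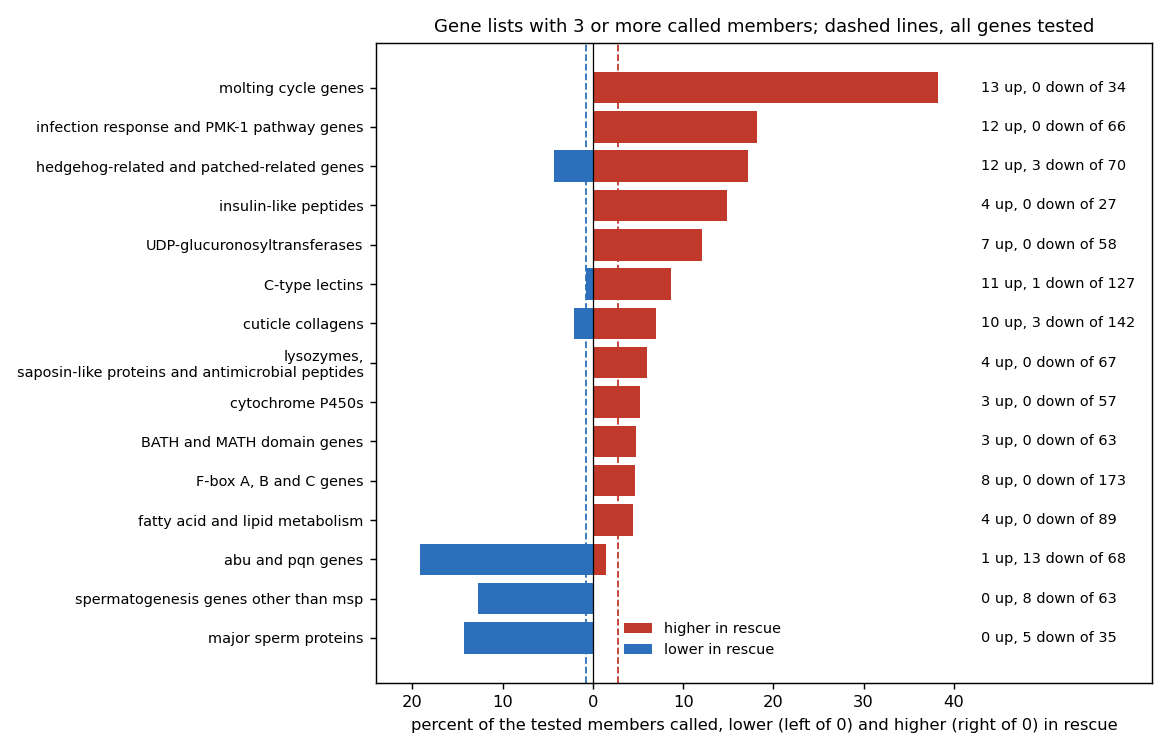
Percent of the tested members of each gene list called lower (left of 0) and higher (right of 0) in rescue, for the lists with 3 or more called members. Dashed lines mark the shares over all genes tested, 0.753% lower and 2.83% higher, and molting cycle genes reach furthest to the right, at 13 of 34.

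Markers of other tissues gave few calls. Body wall muscle markers had 0 called of 30 by either tool and 1 at an unadjusted p under 0.05. Intestine markers had 0 of 24 by edgeR and, by DESeq2, 1 higher and 2 lower, with 7 at an unadjusted p under 0.05, and their summed level overlapped between the groups (9912 to 11350 CPM in rescue and 9835 to 10810 CPM in mutant samples). Pharynx markers had 0 of 16 by edgeR and 1 lower by DESeq2, with 5 at an unadjusted p under 0.05. Of 20 hypodermis and seam markers the cuticle gene dpy-7 and the hedgehog-related gene wrt-2 were called (10%, against 3.58% of all genes). Both are also members of lists above. Both calls were lost with the block (edgeR adjusted p = 0.0209 and 0.0235) and without mutant sample 1, 2 or 4 or rescue sample 1 or 4.

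Lipid genes were called about as often as all genes, at 4.49% against 3.58%. Among 89 tested 4 rose and 0 fell, with 3 called under the block, 0 with all 12 samples and 2 without mutant sample 2, rescue sample 1 or rescue sample 4. lipl-6, of the lysosomal lipase family, had 4.77, 3.57, 2.87 and 4.08 CPM in rescue samples, against 1.00, 1.29, 1.26 and 1.19 CPM in mutant samples. It was higher in every rescue sample (log2 fold change 1.67, SE 0.18, edgeR's quasi-likelihood adjusted p = 0.00072, and 0.0928 with all 12 samples). Vitellogenins, the yolk proteins, had 0 called of 7 by either tool and 0 at an unadjusted p under 0.05, with overlapping sums of 15970 to 30860 CPM in rescue and 17120 to 34360 CPM in mutant samples.

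Stress lists gave no edgeR calls in the 8 samples, and 1 each without mutant sample 3 (endoplasmic reticulum) and without mutant sample 1 (heat shock). The endoplasmic reticulum unfolded protein response had 0 of 19, with 3 higher by DESeq2 and 4 at an unadjusted p under 0.05. Cytosolic heat shock proteins had 0 of 18, with 2 lower by DESeq2 and 6 at an unadjusted p under 0.05. F-box genes, which encode substrate receptors of ubiquitin ligases, had 8 higher and 0 lower of 173, a share of 4.62% against 3.58% of all genes. fbxa-189 averaged 8.03 ± 0.38 CPM in rescue and 3.94 ± 0.49 CPM in mutants (SD over 4 samples each; log2 fold change 1.03, edgeR adjusted p = 0.000585). With the block 4 F-box genes were called, and each fit without 1 sample gave 3 to 5. Of 67 lysozymes, saposin-like proteins and antimicrobial peptides 4 rose and 0 fell (5.97%), with 0 called with all 12 samples, 2 called under the block and 2 without mutant sample 2, and of 63 BATH and MATH domain genes 3 rose and 0 fell (4.76%), with 1 under the block and 1 without mutant sample 1 or 2 or rescue sample 4.

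**Figure D5:**
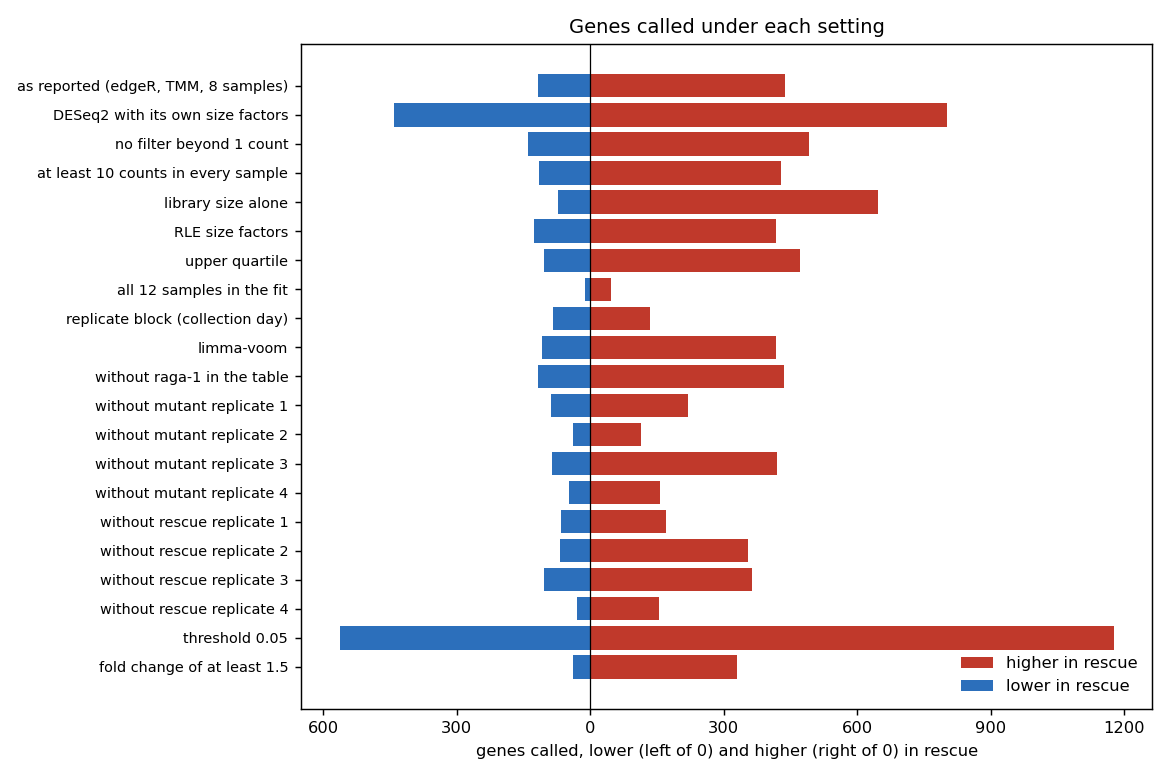
Genes called lower (left of 0) and higher (right of 0) in rescue under each setting, with the setting used in the text at the top. The number higher runs between 48 with all 12 samples in the fit and 1177 at a threshold of 0.05.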

How the data were processed

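By the study's methods, stranded poly(A) libraries were sequenced as read pairs and run through bcbio-nextgen, and the authors quantified transcripts with Salmon and summed them to genes with tximport. Versions and the strand setting of the counting are not given in the sources used here. The deposited values used here are expected counts, the estimated and not normalized number of fragments of each of 21882 genes on WBcel235, and a normalized table was not used. They were rounded, filtered with filterByExpr, scaled by TMM and tested with edgeR 4.0.16 (glmQLFit, glmQLFTest) on 8 samples without a block, with Benjamini-Hochberg adjustment over 15535 genes at a threshold of 0.01. Wild type CPM was put on the same scale. Coordinates come from the Ensembl annotation of WBcel235.

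The sample labels give rescue and mutant samples of the same number the same collection day, so a fit with that number as a block was run. Deviations from the group means of the same-day pairs correlated at -0.01, 0.16, -0.13 and 0.01 across genes. Pairs from different days ran more widely, from -0.285 (rescue sample 4 with mutant sample 1) to 0.309 (rescue sample 4 with mutant sample 3). The method was tested on simulated data. Where each simulated gene kept its own spread, a larger share of calls was false with the block than without it. Where spread followed expression level alone, the shares were alike. The limits for passing were set after a first version had stopped on the share of false calls with the block. DESeq2 1.42.0 and limma 3.58.1 (voom) served as alternatives.

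The comparison and the gene lists were chosen with earlier results of these data known. Named genes were raga-1, genes the study measured by qPCR and array parts, the 10 largest called rises and falls at 1 CPM or more, up to 4 called members of each list by p, the 5 largest differences in CPM each way, and genes near 0 counts in only 1 group with their neighbours. Only part of these are printed, and the other genes printed were chosen after their values were seen. The floor of 3 counts is 0.09 to 0.15 CPM in these 8 libraries. P-values measure the spread between samples from separate egg lays.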

Additional observations from a re-analysis of the deposited data

Results flagged for a closer look

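Among 315 groups of 4 samples, covering the genes named under the stated rule in each genotype, 17 held a sample that stood apart from the other 3 by Dixon's criterion, and chance gives about 1 in 20 groups. In rescue, egl-3 was high in sample 1 (150.6 CPM against 144.1 to 144.9 CPM), acs-1 was high in sample 2 (266.4 CPM against 228.8 to 232.9 CPM) and sams-5 was low in sample 4 (18.92 CPM against 19.86 to 19.98 CPM). In the mutant, fbxa-64 (5.767 CPM against 6.822 to 7.001 CPM) and C28A5.6 (29.3 CPM against 34.67 to 35.66 CPM) were low in sample 1, col-176 was low in sample 3 (1.451 CPM against 4.346 to 4.941 CPM), and fbxa-189 (4.667 CPM against 3.629 to 3.761 CPM) and col-60 (899.4 CPM against 797.7 to 809.9 CPM) were high in sample 4.

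Wild type sample 1, collected on day 2, accounted for 7 of the 9 wild type entries. There ugt-31 (8.235 CPM), fbn-1 (27.06 CPM), T26E4.4 (0.8823 CPM) and col-47 (2.573 CPM) were high, and nspd-3 (92.86 CPM), msd-4 (110.3 CPM) and nspd-2 (102.6 CPM) were low. irg-5 was low in wild type sample 4 (8.206 CPM), and bath-20 was high in wild type sample 3 (1.428 CPM). No wild type sample entered the comparison of rescue with mutant.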

How the results depend on the processing

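Counts of called genes depended on the setting. DESeq2 called 802 genes higher and 441 lower in rescue, a threshold of 0.05 gave 1177 higher and 563 lower, library size alone 72 lower, all 12 samples 48 higher and 12 lower, collection day as a replicate block 135 higher, and a fold change of at least 1.5 gave 39 lower. Leaving out 1 sample gave between 115 and 419 genes higher and between 29 and 103 lower. Among the named genes, none of the 98 called ones reversed direction under these alternatives, and 4 uncalled ones did. All called genes had groups that did not overlap, so leaving out 1 sample could hardly reverse them. Their lack of reversals is therefore no test of direction. Library size alone gave unc-54 a log2 fold change of 0.0115, gpd-3 0.0297 and nex-3 0.0651, and upper quartile scaling gave nex-3 0.0115. Without 1 sample, values ran between -0.0996 and 0.0189 for gpd-3 (above 0 without mutant sample 1 or rescue sample 3), between -0.0313 and 0.0709 for C28A5.6 (below 0 without mutant sample 1 or rescue sample 1) and between -0.0368 and 0.0368 for nex-3 (above 0 without mutant sample 1, rescue sample 1 or rescue sample 4). Of the 98 named genes that were called, 98 kept the call with DESeq2 and with upper quartile scaling, 93 with library size, 56 with the replicate block, 27 with all 12 samples, and 59 to 87 with 1 sample left out. The cause of these differences was not tested. Counts of list members without 1 sample were added after seeing the data. Depth limits genes near 3 counts per library.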

Other observations

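Other gene families held several called genes, all picked out after their values were seen and given without a test. Over all genes tested 2.83% were called higher and 0.753% lower. Of 7 lipocalin-related lpr genes, which encode secreted proteins of the apical matrix, 5 were higher in rescue, 1 was called with collection day as a block and the median log2 fold change was 1.91. Of 8 fkb genes, which encode peptidyl-prolyl isomerases, 4 were higher, 1 was called with the block and the median was 0.43. Of 9 cadherin cdh genes 3 were higher, 0 were called with the block and the median was 0.34, and of 25 cuticlin-like cutl genes 4 were higher, 0 were called with the block and the median was 0.10. Of 47 histone genes, near-identical copies among which reads cannot be assigned with certainty, 7 were higher and 3 were called with the block. Among falls, 4 of 5 nspa genes and 5 of 6 genes of the T06E4 group were lower in rescue, with medians of -0.88 and -0.57, and 3 and 4 of them were called with the block. With all 12 samples in the fit 0 genes of these families were called by edgeR.

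pgp-5, a P-glycoprotein transporter gene, was higher in rescue with a log2 fold change of 1.04 (edgeR's quasi-likelihood adjusted p = 0.000206, and 0.00273 with the block).

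The gene WBGene00004677, listed without a symbol, had 891, 760, 841 and 1009 CPM in rescue samples, against 1512, 768, 1666 and 25180 CPM in mutant samples, so mutant sample 4 alone set its mean. It was not called (adjusted p = 0.0694).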
